A study of Mus musculus with 34 samples.

Results

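The axon guidance ligands and receptors of the mouse cornea were 62 genes: semaphorins, plexins, neuropilins, ephrins, Eph receptors, Slits, Robos, netrins and netrin receptors. They were taken by gene symbol, not by level, from 19938 genes that had a probe set with a single symbol, and each gene was read through its probe set of highest mean over the 32 whole-cornea arrays. The groups were E14.5, E15.5, E17.5, P3, P7, P14, P28, 2 months, 6 months, 1 year, 18 months and 2 years (E, embryonic day; P, postnatal day). The youngest 8 of these ages, E14.5 to 2 months, had 3 arrays each and the 4 oldest had 2 each. All mice were wild-type CB6 and untreated. Whole cornea was cut free of the neighbouring tissue. Corneal epithelium of P28, lifted off with dispase II, and corneal stroma of P7, cut from sections of the globe by laser capture, had 1 array each. No label names the animals behind an array, so p-values cover the spread between arrays, which may be technical. Among the 2-month arrays the identifiers 1A and 1B occur, and their meaning is not given.

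Guidance cues steer growing axons by attraction or repulsion. Secreted class 3 semaphorins act through neuropilins paired with A-type plexins, Slits through Robos, netrins through Dcc and the Unc5 receptors, and membrane-bound ephrins through Eph receptors on the neighbouring cell. The cornea is densely innervated by sensory axons of the trigeminal ganglion, which reach its edge in the embryo and enter stroma and then epithelium; the same families are also used by epithelial, stromal and vessel cells for contact and migration.

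The upstream sequences of 5 genes are shown first: a pair of secreted ligands and their neuropilin receptors, which fell together at P28, and an Eph receptor whose late arrays all lay higher. Each is the RefSeq window of GRCm38.p6 that runs from 250 bases before to 50 bases after the gene's start, written in the gene's own direction, and capitals mark the GC box GGGCGG or its reverse complement CCGCCC. Sema3a (secreted ligand) lies at chr5:13396534-13396833 on the plus strand, Sema3c (secreted ligand) at chr5:17574566-17574865 on the plus strand, Nrp1 (receptor) at chr8:128358823-128359122 on the plus strand, Nrp2 (receptor) at chr1:62703067-62703366 on the plus strand and Epha2 (Eph receptor) at chr4:141300971-141301270 on the plus strand.
Sema3a: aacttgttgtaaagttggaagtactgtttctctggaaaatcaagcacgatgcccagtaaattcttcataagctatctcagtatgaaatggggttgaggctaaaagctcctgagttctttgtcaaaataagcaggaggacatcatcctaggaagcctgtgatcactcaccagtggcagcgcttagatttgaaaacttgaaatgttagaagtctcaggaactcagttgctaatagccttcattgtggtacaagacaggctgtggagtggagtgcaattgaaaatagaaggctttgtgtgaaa
Sema3c: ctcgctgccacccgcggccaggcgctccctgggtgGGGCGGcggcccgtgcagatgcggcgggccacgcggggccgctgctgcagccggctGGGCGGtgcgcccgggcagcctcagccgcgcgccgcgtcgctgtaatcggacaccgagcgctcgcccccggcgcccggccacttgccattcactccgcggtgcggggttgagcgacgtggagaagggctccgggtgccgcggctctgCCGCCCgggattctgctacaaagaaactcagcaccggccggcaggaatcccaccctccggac
Nrp1: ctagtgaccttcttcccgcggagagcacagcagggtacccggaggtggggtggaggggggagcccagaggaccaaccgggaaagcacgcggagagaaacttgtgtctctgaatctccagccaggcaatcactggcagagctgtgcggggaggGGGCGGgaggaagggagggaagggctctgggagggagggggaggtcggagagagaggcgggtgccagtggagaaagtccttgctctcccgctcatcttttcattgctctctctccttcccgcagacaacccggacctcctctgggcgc
Nrp2: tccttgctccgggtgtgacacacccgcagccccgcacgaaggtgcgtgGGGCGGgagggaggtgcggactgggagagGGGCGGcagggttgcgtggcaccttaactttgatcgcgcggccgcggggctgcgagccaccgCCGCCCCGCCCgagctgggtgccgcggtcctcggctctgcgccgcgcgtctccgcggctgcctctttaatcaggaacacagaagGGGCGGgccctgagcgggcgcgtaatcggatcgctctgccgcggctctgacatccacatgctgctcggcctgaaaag
Epha2: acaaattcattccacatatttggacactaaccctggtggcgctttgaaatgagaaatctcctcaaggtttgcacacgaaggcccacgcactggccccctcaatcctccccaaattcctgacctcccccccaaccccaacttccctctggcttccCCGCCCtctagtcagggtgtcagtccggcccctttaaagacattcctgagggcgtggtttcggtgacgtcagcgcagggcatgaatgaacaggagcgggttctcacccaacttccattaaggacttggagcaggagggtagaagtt

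The Sema3a window held 0 GC boxes and 41.3% G and C, the Sema3c window 3 boxes and 75.7%, the Nrp1 window 1 box and 64% and the Nrp2 window 5 boxes and 70.7%. The Epha2 window held 1 box and 54.7% G and C. RefSeq windows were matched for 53 of the 62 genes, 69 windows in all, and 72.5% of them held a GC box, against 35.7% of all 32851 windows. The letters CCACCC or their reverse complement stood in 52.2% of the guidance windows and 31.5% of all windows, CACGTG in 7.25% and 7.15%, and TATAAA or its reverse complement in 2.9% and 13.6%. A match of letters describes the window, not a bound site, and the G and C content of the windows was not matched.

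The arrays gave 1 deposited intensity per probe set, used as log2(intensity + 16). A gene was tested if its probe set exceeded the array's median on 2 or more arrays of whole cornea, which 46 of the 62 guidance genes and 12996 genes in all did. Of the 46, 10 lay above the median on all 32 arrays, while Epha10, Epha3, Ephb1, Ephb6, Sema6b, Plxna3 and Unc5b passed through at most 5 arrays. The 16 that did not pass were Epha6, Epha8, Efna2, Efna3, Efnb3, Plxnb3, Plxnc1, Plxnd1, Robo4, Slit1, Sema3e, Sema3g, Sema4f, Sema4g, Sema5b and Sema7a. Their age means ran from 6.38 to 8.16 log2 units, with a largest range over the ages of 1.78. A gene that passes because it is high at 1 age must differ between ages, so the counts that follow describe the tested genes and not the families as a whole.

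Over the 12 ages 30 of the 46 tested guidance genes were called by limma's F-test at adjusted p below 0.05 with at least 1 log2 unit between their highest and lowest age mean. Over all genes tested 40.6% were called, and the median range was 1.66 log2 units for the guidance genes and 0.87 for all genes. By family the calls were 4 of 5 class 3 semaphorins, 6 of 9 semaphorins of classes 4 to 7, both neuropilins, 3 of 6 plexins, both Slits, both Robos, 2 of 3 ephrin-A ligands, 6 of 7 EphA receptors, 1 of 4 EphB receptors and 0 of 2 ephrin-B ligands. Ntn4 of 2 netrins and Dcc of 2 netrin receptors were also called. The 16 tested genes that were not called had ranges of 0.37 to 0.98 log2 units, and 43 of the 46 had an unadjusted p below 0.05, as did 10602 of all 12996 genes. Among the 30 called genes 19 had their highest age mean at E14.5 to P14 and 11 at P28 to 2 years. E15.5 was the age of highest mean for 8 genes, E14.5 for 5, P7 for 5 and 2 years for 5, while 11 had their lowest mean at E14.5 and 8 at 18 months. These ages were not counted over all genes, so they are not shown to be particular to guidance genes.

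**Figure D1:**
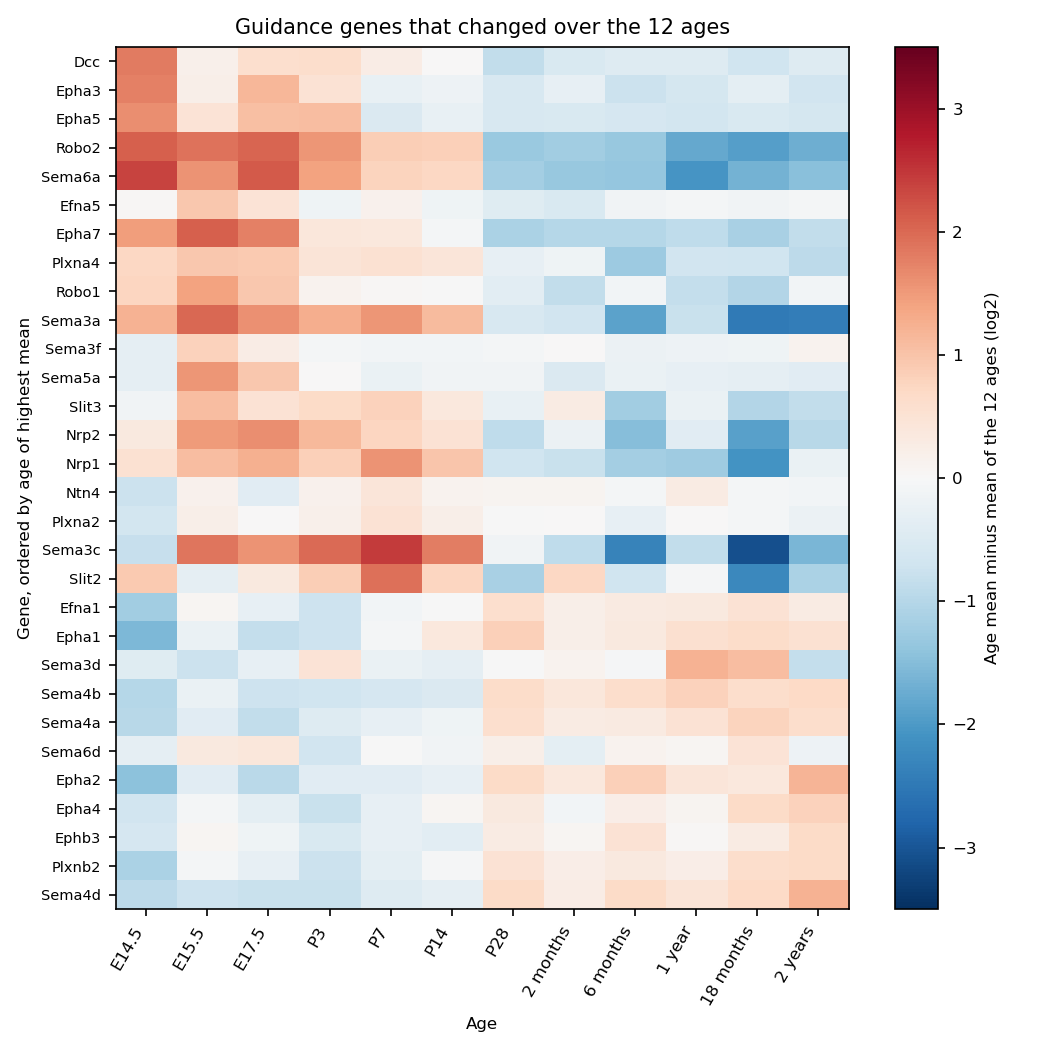
Age means of the 30 called guidance genes (vertical axis, ordered by the age of their highest mean) at the 12 ages (horizontal axis), each as the difference from that gene's mean over the ages in log2 units, red for above and blue for below. The upper block is mostly red before P28 and mostly blue from P28 on, though Sema3f, Plxna2 and Ntn4 in it have their lowest mean at E14.5. The lower block, from Efna1 to Sema4d, is mostly the other way round.

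Within E14.5 to P14 limma called 22 guidance genes, beside 19.6% of all genes, and within P28 to 2 years it called 8, beside 6.77%. The 8 were Sema3a, Sema3c, Sema3d, Nrp1, Nrp2, Plxna4, Slit2 and Slit3, that is, class 3 semaphorins, their receptors and Slits, with no Eph receptor or ephrin among them. In the same test 10 of 14 keratocyte and stroma markers and 5 of 7 corneal endothelium markers were called. So were 6 of 10 retina markers and 1 of 13 epithelial markers. The part of such cell mixtures in these 8 results was not tested. The count of guidance genes within P28 to 2 years was 5 without 18 months replicate 1, beside 6.01% of all genes. At E15.5 against E14.5, a step within the embryo, 13 guidance genes were called, 9 higher and 4 lower, beside 10.4% of all genes (7.35% higher, 3.1% lower). At P14 against E15.5 limma called 6, 1 higher and 5 lower, beside 5.19% (3.21% higher, 1.98% lower). At P28 against P14, the step that follows eye opening, 9 were called, 1 higher and 8 lower, beside 7.64% (4.14% higher, 3.5% lower). In 1 year, 18 months and 2 years against 2 and 6 months 1 gene, Slit2, was called lower, beside 0.677% of all genes (0.123% higher, 0.554% lower), and 7 of 46 had an unadjusted p below 0.05, as did 2475 of all 12996 genes. The median log2 difference of the tested guidance genes was 0.56 at E15.5 against E14.5, -0.30 at P14 against E15.5, -0.13 at P28 against P14 and 0.03 in the ageing comparison.

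Some arrays stood apart. By the medians of marker lists, lens genes were high on E14.5 replicates 2 and 3, P14 replicate 2, 2 months replicate 1 and 6 months replicate 2, muscle genes on E15.5 replicate 1 and E17.5 replicates 1 and 3, and retina genes on 6 months replicate 1. Without these arrays the counts were 5 at P14 against E15.5, beside 5.51% of all genes, and 9 at P28 against P14, beside 7.13%. Within P28 to 2 years, where no 6-month array was left, the count was 8, beside 8.49% of all genes. Plxna4 was not among these 8, and the class 4 semaphorin Sema4d was (range 1.09). At E14.5 this leaves replicate 1 alone, so for E15.5 against E14.5 only log2 differences of this run are given. In addition, 8 probe sets with no gene name read at least 1501 intensity units on all 18 arrays of E14.5 to P14 and at most 12.8 on all 14 arrays of P28 to 2 years. This division of the arrays coincides with the step between P14 and P28, so age and whatever set those probe sets apart cannot be told apart there.

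**Figure D2:**
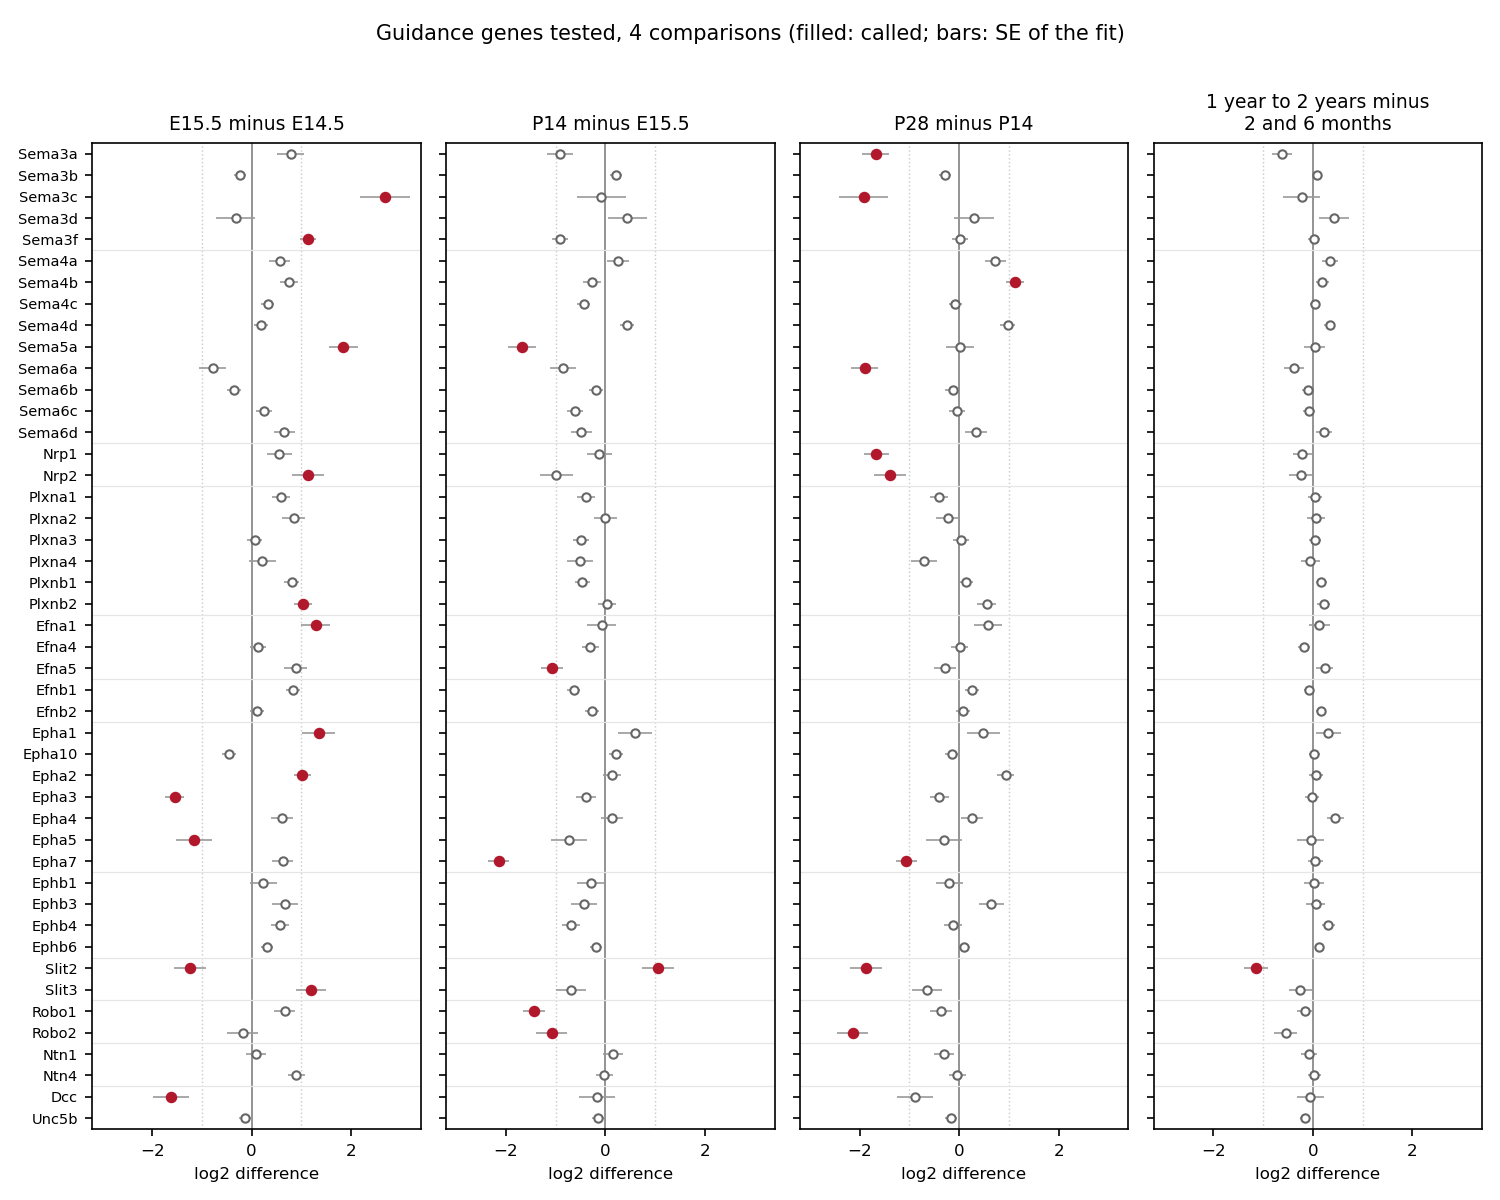
Log2 differences (horizontal axis, later minus earlier age, bars the standard error of the fit) of the 46 tested guidance genes in the 4 comparisons between ages, filled where called and with dotted lines at -1 and 1. Of the filled points 9 of 13 lie to the right at E15.5 against E14.5, while 5 of 6 at P14 against E15.5, 8 of 9 at P28 against P14 and Slit2 in the ageing comparison lie to the left.

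Sema3c, a secreted semaphorin that acts through both neuropilins, had the largest range of any guidance gene, 5.51 log2 units. It read 10.98, 10.66 and 11.28 log2 units at E15.5, against 9.52, 8.78 and 6.58 at E14.5. Every E15.5 array lay above every E14.5 array, and limma gave a rise of 2.68 log2 units (SE 0.49, adjusted p = 1.6e-04). Without the arrays rich in lens, muscle or retina genes, which leaves E14.5 replicate 1 alone at that age, the rise of Sema3c was 1.45. Its level stayed high through P7, with 12.00, 10.97 and 11.60. At P28 it read 8.98, 9.21 and 8.73, against 11.58, 10.43 and 10.67 at P14, a fall without overlap of the arrays (log2 difference -1.91, SE 0.49, limma adjusted p = 0.0046). At 18 months the arrays read 6.12 and 5.91, and at 2 years 7.18 and 7.80.

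Sema3a, the secreted semaphorin known for repelling sensory axons through Nrp1, was high before P28 and low after it. It read 8.42, 8.59 and 8.14 log2 units at P28, against 10.69, 9.77 and 9.73 at P14. The arrays did not overlap (log2 difference -1.68, SE 0.27, limma adjusted p = 5.8e-05). Over all ages its 14 arrays of P28 to 2 years had a lowest, median and highest value of 6.16, 8.15 and 8.59, all below the 18 arrays of E14.5 to P14, which had 9.53, 10.47 and 11.04. Among the late ages the 2-month arrays read 8.21, 8.50 and 8.17, the 6-month arrays 6.66 and 7.53, the 1-year arrays 8.20 and 8.16, the 18-month arrays 6.32 and 6.66 and the 2-year arrays 6.16 and 6.92. The late ages therefore did not follow 1 direction, since the 6-month arrays lay below the 1-year arrays.

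The other called class 3 semaphorins were Sema3f and Sema3d. Sema3f, a ligand of Nrp2, read 9.63, 10.12 and 10.32 log2 units at E15.5, against 9.04, 8.93 and 8.71 at E14.5 (log2 difference 1.13, SE 0.16, limma adjusted p = 9.8e-06), with no overlap. Sema3d was called in the F-test within P28 to 2 years (range 2.05, limma adjusted p = 0.023). Its arrays read 8.60 and 8.49 at 6 months, 9.61 and 9.97 at 1 year, 9.70 and 9.59 at 18 months and 7.91 and 7.56 at 2 years. The 4 arrays of 1 year and 18 months lay above every other late array of Sema3d, and the 2-year arrays below every other. Sema3b was tested and had a range of 0.63, below the call.

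The neuropilins Nrp1 and Nrp2, which bind class 3 semaphorins, were both high early and lower from P28. Nrp1 read 7.64, 7.44 and 7.50 log2 units at P28, against 9.60, 8.92 and 9.04 at P14 (log2 difference -1.66, SE 0.25, limma adjusted p = 3.7e-05). Nrp2 read 7.67, 7.31 and 7.38 at P28, against 9.04, 8.85 and 8.62 at P14 (log2 difference -1.38, SE 0.32, limma adjusted p = 0.0022). For both the P28 arrays lay below all P14 arrays. All 14 arrays of P28 to 2 years lay below all 18 earlier arrays for Nrp1, with medians of 7.39 and 9.19, while the Nrp2 arrays of the 2 periods overlapped. Nrp1 exceeded the array median on 19 arrays, among them all 18 before P28 and none of P28. It passed the filter through arrays where it is high, so its lack of overlap is no support for a difference. Nrp2 had also risen at E15.5, with 10.10, 9.63 and 9.74, against 9.36, 9.07 and 7.62 at E14.5 (log2 difference 1.14, SE 0.32, limma adjusted p = 0.0079), but without E14.5 replicate 3 the difference was 0.61 and the call was lost. At the late ages Nrp1 read 5.97 and 6.28 at 18 months and 8.17 and 7.83 at 2 years, its lowest and highest late arrays.

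Among the plexins, the receptors that carry the semaphorin signal into the cell, Plxna2, Plxna4 and Plxnb2 were called over the 12 ages. Plxna4, a partner of the neuropilins, had its highest mean at E15.5 and its lowest at 6 months, where the arrays read 7.06 and 7.02. Plxna2 had its highest mean at P7 and a range of 1.13 log2 units. Plxnb2, a B-type plexin bound by class 4 semaphorins, read 9.41, 9.61 and 9.88 at E15.5, against 8.93, 8.68 and 8.20 at E14.5 (log2 difference 1.03, SE 0.18, limma adjusted p = 1.2e-04). The Plxnb2 arrays did not overlap, but its difference lies close to the fold threshold and its call was lost under 6 alternatives. Plxna1, Plxna3 and Plxnb1 were tested and not called over the ages.

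The transmembrane semaphorins split by direction. Sema6a, which binds A-type plexins, read 6.90, 6.63 and 7.59 log2 units at P28, against 8.82, 9.21 and 8.78 at P14. It fell (log2 difference -1.90, SE 0.27, limma adjusted p = 1.6e-05), and all 14 late arrays lay below all 18 earlier ones, with medians of 6.64 and 9.61. Sema6a passed the filter only through arrays before P28, where it is high. Sema5a, a semaphorin with thrombospondin repeats, was highest at E15.5, with 11.39, 11.22 and 11.78, against 10.39, 9.95 and 8.50 at E14.5 (log2 difference 1.85, SE 0.28, limma adjusted p = 1.8e-05). At P14 Sema5a read 10.00, 9.54 and 9.84, below all of those E15.5 arrays (log2 difference -1.67, SE 0.28, limma adjusted p = 1.7e-04).

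Of the class 4 semaphorins tested, Sema4b alone was called at P28 against P14. It read 9.32, 9.06 and 9.44 log2 units at P28, against 8.24, 7.96 and 8.24 at P14 (log2 difference 1.13, SE 0.18, limma adjusted p = 5.0e-05), the one guidance gene called higher at that step. After quantile normalization the Sema4b difference was 0.999, just under the threshold of 1. Sema4d, the ligand of Plxnb1, read 9.78, 9.66 and 9.63 at P28, against 8.87, 8.60 and 8.69 at P14 (log2 difference 0.97, SE 0.14, limma adjusted p = 2.5e-05), which is under the fold threshold. Sema4a read 9.06, 8.94 and 9.09 at P28, against 8.43, 8.19 and 8.28 at P14 (log2 difference 0.73, SE 0.22, limma adjusted p = 0.012), also under it. Neither pair of array groups overlapped. Sema4c read 7.80, 7.89 and 7.96 at P28, against 7.60, 8.18 and 8.08 at P14, with overlap (log2 difference -0.07). Sema4a, Sema4d and the Eph receptor Epha2 were the 3 guidance genes whose 14 late arrays all lay above their 18 early arrays, beside 5.38% of all genes. Sema3a, Sema6a, Nrp1, Robo2 and Epha7 were the 5 with all late arrays below, beside 2.47% of all genes. Of these, Robo2, Sema6a and Epha7 exceeded the array median on 18, 18 and 12 arrays, all of them before P28. They passed the filter only through the arrays where they are high, so their lack of overlap is no support for a difference. Nrp1 exceeded the median on 19 arrays, among them all 18 before P28, so the same holds for Nrp1.

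**Figure D3:**
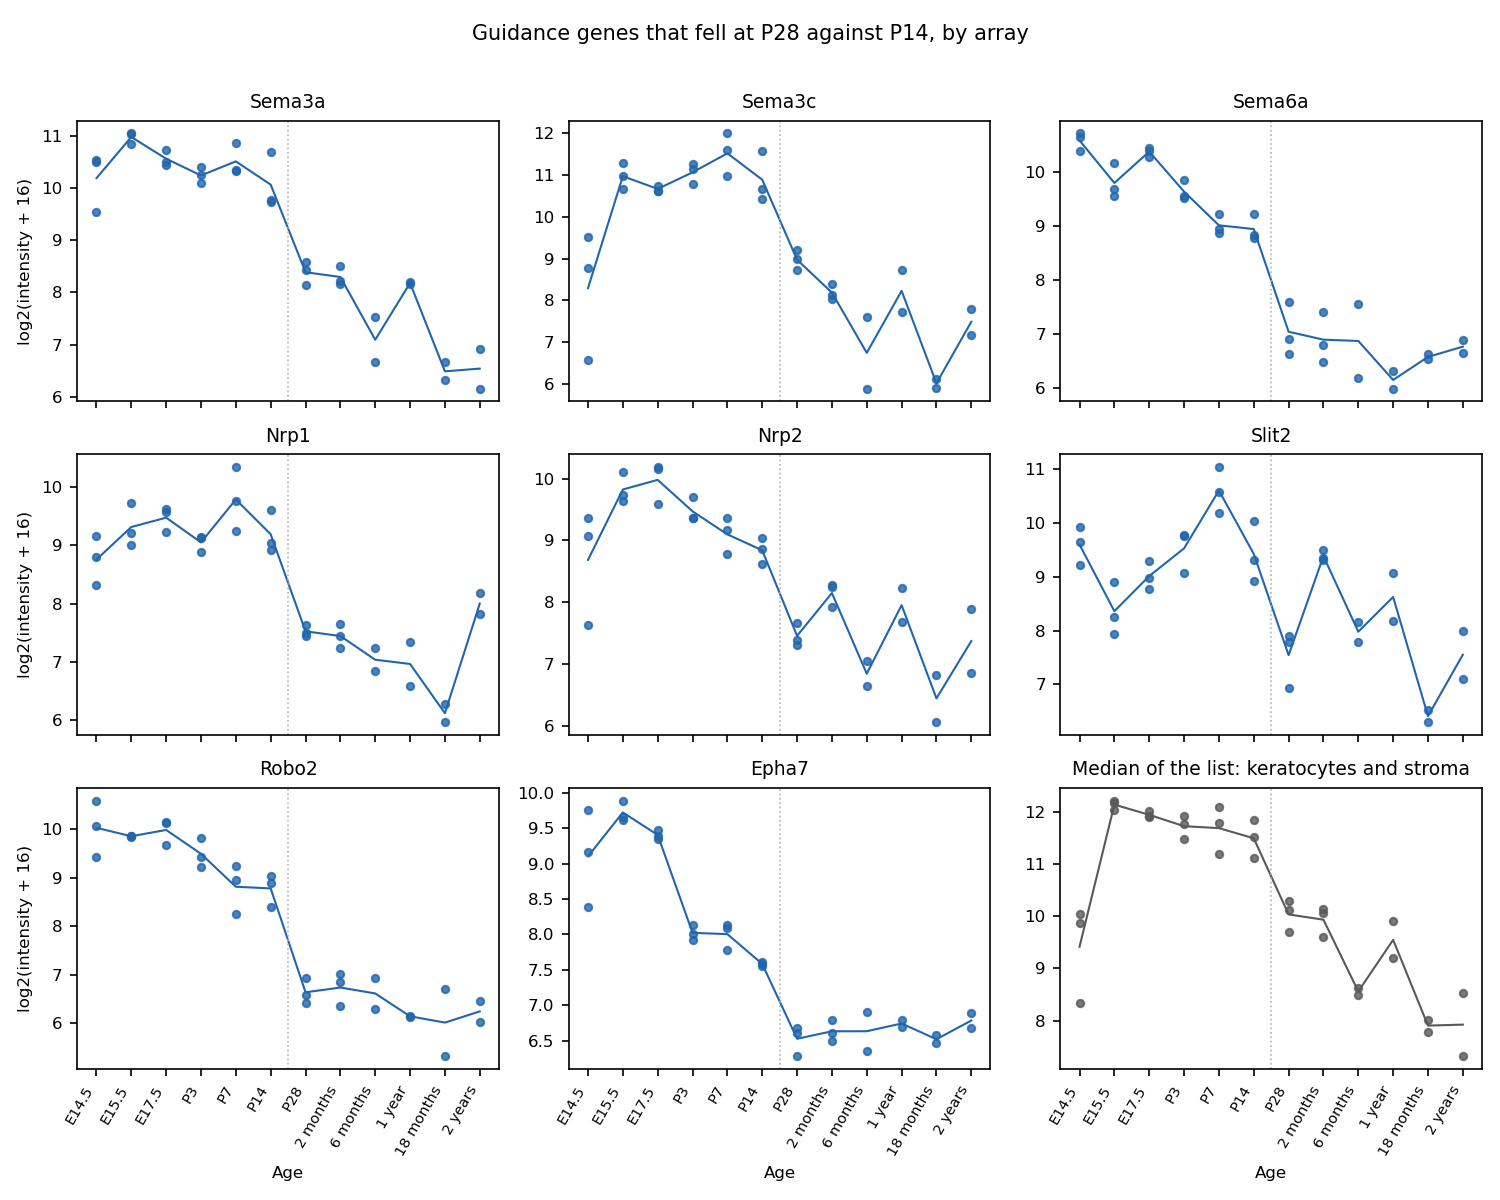
Values by array (points) and age means (lines) of guidance genes that were called lower at P28 against P14, with the median of the list of keratocyte and stroma markers, in log2(intensity + 16) over the 12 ages. The dotted line parts the ages up to P14 from those from P28 on, and the marker list drops at the same place.

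Slit2, a secreted ligand of Robo receptors, changed direction several times. It read 8.90, 8.24 and 7.93 log2 units at E15.5, against 9.22, 9.65 and 9.91 at E14.5 (log2 difference -1.24, SE 0.32, limma adjusted p = 0.0045). Without the arrays rich in lens, muscle or retina genes, which leaves E14.5 replicate 1 alone at that age, the Slit2 difference was -1.13. It then peaked at P7, with 11.03, 10.57 and 10.18. At P14 the Slit2 arrays read 9.30, 10.04 and 8.92, above all of those E15.5 arrays (log2 difference 1.06, SE 0.32, limma adjusted p = 0.023). That call was lost under several alternatives, among them without P14 replicate 2 (0.75) and without the rich arrays (1.03, limma adjusted p = 0.070). At P28 it read 7.90, 6.93 and 7.80, below all P14 arrays (log2 difference -1.88, SE 0.32, limma adjusted p = 1.4e-04), but the 2-month arrays read 9.35, 9.49 and 9.30. In the ageing comparison the arrays read 8.19 and 9.06 at 1 year, 6.30 and 6.53 at 18 months and 7.10 and 8.00 at 2 years, against 9.35, 9.49 and 9.30 at 2 months and 7.79 and 8.17 at 6 months. The groups overlapped, and limma gave a log2 difference of -1.15 (SE 0.24, adjusted p = 0.0094). With an offset of 64 in place of 16 it was -0.94, under the fold threshold.

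Slit3, the related ligand, read 9.16, 8.85 and 9.59 log2 units at E15.5, against 8.23, 8.68 and 7.13 at E14.5 (log2 difference 1.19, SE 0.30, limma adjusted p = 0.0034). That difference was 0.74 without E14.5 replicate 3. At the late ages Slit3 read 8.07, 8.63 and 8.54 at 2 months, 6.91 and 6.93 at 6 months, 7.97 and 7.80 at 1 year, 6.79 and 7.41 at 18 months and 7.06 and 7.47 at 2 years. The 2-month and 1-year arrays of Slit3 lay above those of the other 3 of these ages. The ageing comparison was also run without the arrays rich in lens, muscle or retina genes. This removes both 6-month arrays and 2 months replicate 1. With only 2 months replicates 2 and 3 as the younger group, limma called 5 guidance genes lower, beside 2.88% of all genes called. They were Slit2 (log2 difference -1.87, limma adjusted p = 9.9e-04), Sema3a (-1.26), Slit3 (-1.17), Sema3c (-1.02) and Nrp2 (-1.01).

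The Slit receptors Robo1 and Robo2 both fell after E15.5. Robo1 read 9.28, 9.24 and 9.26 log2 units at P14, against 10.54, 10.62 and 10.91 at E15.5 (log2 difference -1.43, SE 0.22, limma adjusted p = 5.6e-05), with no overlap. Robo2 read 9.05, 8.90 and 8.40 at P14, against 9.87, 9.84 and 9.86 at E15.5 (log2 difference -1.08, SE 0.31, limma adjusted p = 0.017), a call that was lost under several alternatives. Its larger change came at P28, with 6.92, 6.58 and 6.42, against those 9.05, 8.90 and 8.40 at P14 (log2 difference -2.14, SE 0.31, limma adjusted p = 2.0e-05). That was the largest fall of any guidance gene at P28. The 14 late arrays of Robo2, with a median of 6.44, all lay below the 18 earlier ones, with a median of 9.56. Robo2 passed the filter only through arrays before P28, where it is high, so this is no support for a difference. Robo1 was not called at P28, and among the later ages it read 9.25 and 9.10 at 6 months, 8.05 and 8.47 at 18 months, its lowest mean, and 9.08 and 9.27 at 2 years.

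Eph receptors split by member. Epha3 read 7.50, 7.14 and 6.74 log2 units at E15.5, against 9.03, 8.43 and 8.57 at E14.5 (log2 difference -1.55, SE 0.20, limma adjusted p = 1.6e-06), but it exceeded the array median on 5 of the 32 arrays. Epha5 read 8.16, 8.17 and 7.81 at E15.5, against 8.15, 8.81 and 10.66 at E14.5 (log2 difference -1.16, SE 0.36, limma adjusted p = 0.014). The Epha5 groups overlapped, and without E14.5 replicate 3 the difference was -0.44. Epha7 was high in the embryo and fell at both later steps. At P14 Epha7 read 7.59, 7.55 and 7.61, against 9.89, 9.62 and 9.67 at E15.5 (log2 difference -2.14, SE 0.21, limma adjusted p = 1.1e-07). At P28 it read 6.61, 6.68 and 6.28, against those 7.59, 7.55 and 7.61 at P14 (log2 difference -1.06, SE 0.21, limma adjusted p = 4.8e-04), a call lost with an offset of 64 (-0.77). Epha7 passed the filter only through 12 arrays before P28, where it is high. Its P14 and P28 arrays all lay under the array median, so the P28 call compares 2 low levels.

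Epha1 and Epha2, receptors expressed in epithelia, moved upward instead. Epha2 read 7.81, 8.16 and 8.39 log2 units at E15.5, against 7.04, 7.30 and 6.97 at E14.5 (log2 difference 1.02, SE 0.18, limma adjusted p = 8.2e-05), close to the fold threshold, and its call was lost under 6 alternatives. It read 9.26, 9.24 and 9.07 at P28, against 8.61, 8.00 and 8.15 at P14, a difference of 0.93 that passed the limma test (adjusted p = 3.2e-04) but not the fold threshold. At 2 years it stood at 9.73 and 9.70, its highest age. Epha1 read 8.31, 9.12 and 9.22 at E15.5, against 8.35, 8.03 and 6.23 at E14.5 (log2 difference 1.35, SE 0.34, limma adjusted p = 0.0030), with overlap, and 0.69 without E14.5 replicate 3. Epha1 had its highest mean at P28, with 9.84, 9.75 and 10.33. Epha4 had its highest mean at 2 years, 9.92 and 10.38. Of the EphB receptors Ephb3 was called over the ages (range 1.28), with its highest mean at 2 years, and Ephb1, Ephb4 and Ephb6 were not.

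The ephrins, membrane-bound ligands of the Eph receptors, also split. Efna1, a ligand of Epha2, read 8.43, 8.74 and 9.06 log2 units at E15.5, against 7.79, 8.11 and 6.45 at E14.5 (log2 difference 1.29, SE 0.29, limma adjusted p = 0.0012), or 0.79 without E14.5 replicate 3. Efna1 had its highest mean at P28, with 9.34, 8.98 and 9.42. Efna5 read 10.18, 9.95 and 9.80 at P14, against 10.86, 11.02 and 11.28 at E15.5 (log2 difference -1.07, SE 0.22, limma adjusted p = 0.0015), with no overlap, or -0.96 without E15.5 replicate 3. Efna4, Efnb1 and Efnb2 were tested and not called over the ages, and Efnb2 had a range of 0.76.

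**Figure D4:**
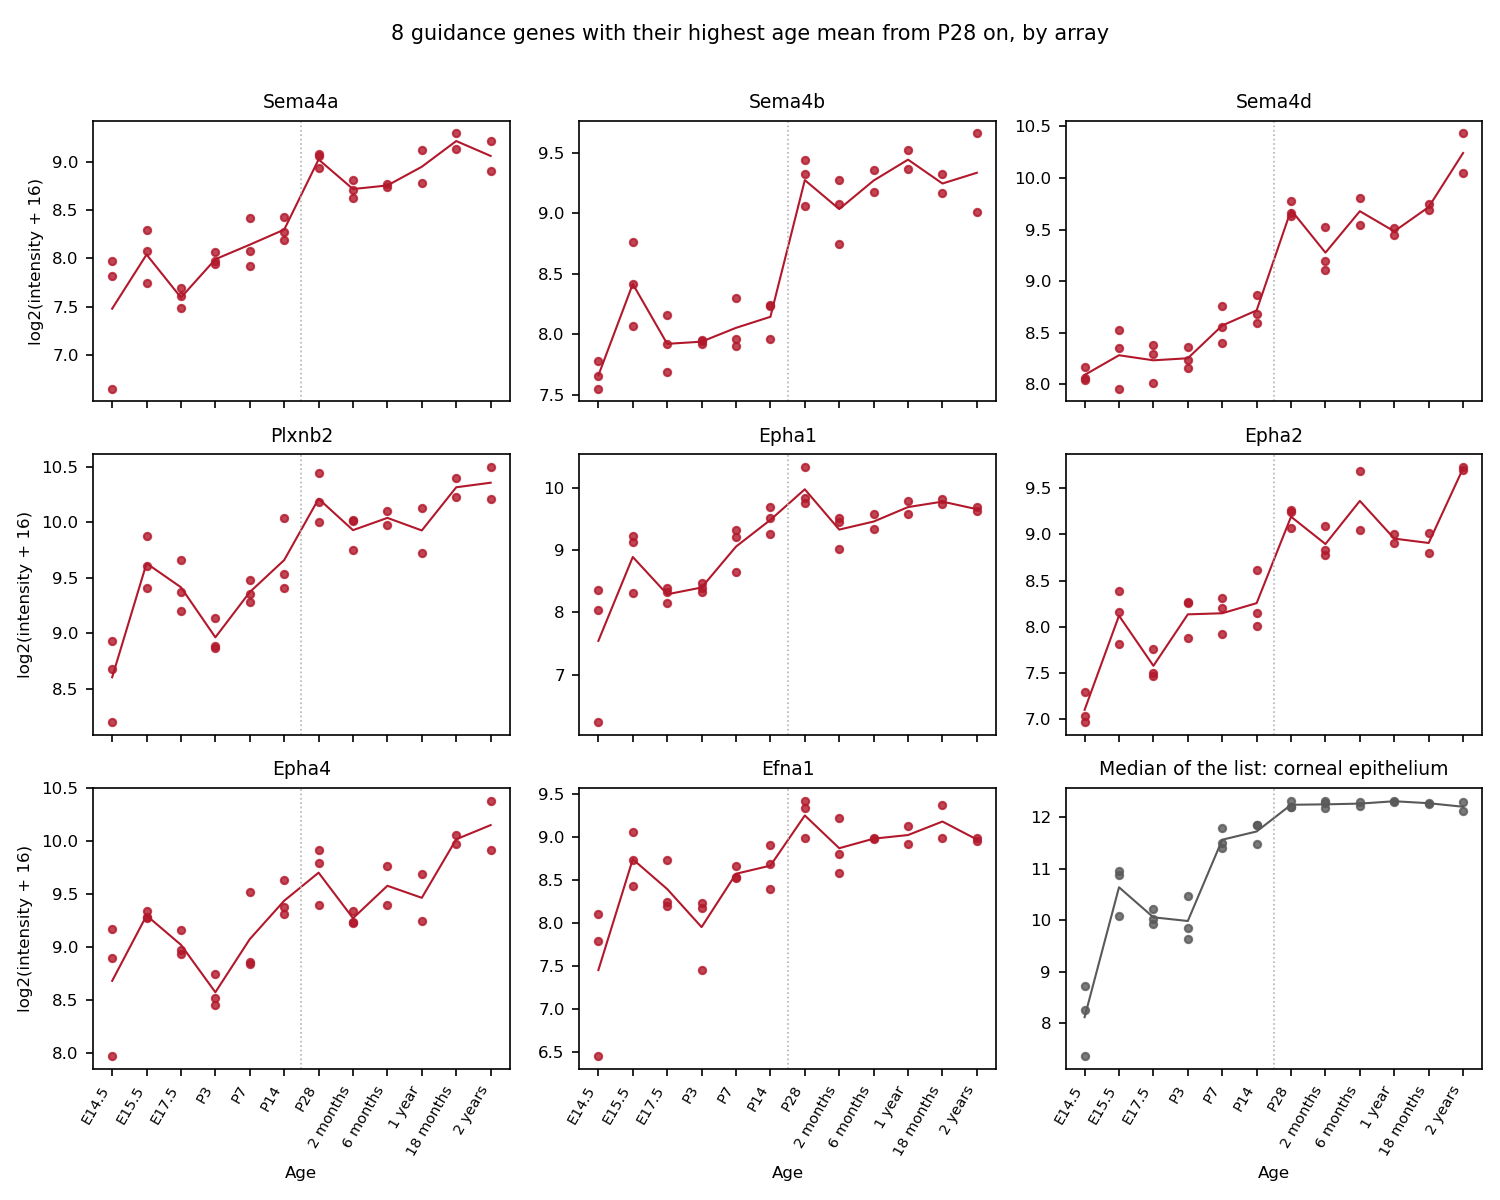
Values by array (points) and age means (lines) of 8 guidance genes whose highest age mean lay at P28 or later, with the median of the list of corneal epithelium markers, in log2(intensity + 16) over the 12 ages. The level of E14.5 is the lowest of the ages for most of them, and Sema4a, Sema4d and Epha2 have all arrays from P28 on above all earlier arrays.

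Of the netrin system, Dcc, a receptor that mediates attraction to netrin, read 8.18, 8.23 and 8.31 log2 units at E15.5, against 8.57, 9.91 and 11.11 at E14.5 (log2 difference -1.62, SE 0.36, limma adjusted p = 0.0011). The E14.5 arrays of Dcc spread over more than 2 log2 units. Without the arrays rich in lens, muscle or retina genes, which leaves E14.5 replicate 1 alone at that age, the difference was -0.30. Ntn4, a netrin of basement membranes, was called over the ages (range 1.18) with its highest mean at P7, where it read 9.70, 9.03 and 9.44, and its lowest at E14.5, with 8.31, 7.89 and 8.41. Ntn1 and Unc5b were tested and not called.

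The E15.5 against E14.5 result depended on single arrays more than the others. Of the E14.5 and E15.5 arrays, E14.5 replicate 3 had the lowest list medians for epithelial and stromal markers. Without it 6 guidance genes were called, 4 higher and 2 lower, beside 8.63% of all genes. Without E15.5 replicate 3 there were 8, 5 higher and 3 lower, beside 9.07% of all genes. Sema3c and Sema5a were called in every alternative run. So was Epha3, but it exceeded the array median on 5 of the 32 arrays and passed the filter through arrays where it is high, so its call is no support for a difference at this step. The median of 13 epithelial markers was 10.07 to 10.96 log2 units on the E15.5 arrays, against 7.36 to 8.72 on the E14.5 arrays. The median of 14 keratocyte and stroma markers was 12.03 to 12.22 at E15.5, against 8.34 to 10.04 at E14.5, and that of 18 lens markers was 7.22 to 7.67 at E15.5, against 9.00 to 12.65 at E14.5. The nerve and Schwann cell list was 7.59 to 8.20 at E15.5, against 8.21 to 8.50 at E14.5, and the blood and leukocyte list 7.33 to 7.77 at E15.5, against 8.11 to 8.94 at E14.5. Of the 10 nerve and Schwann cell genes tested at this step, 1 was called higher and 2 lower, and 4 had a positive difference. The 2 called lower were the axonal neurofilament genes Nefl (log2 difference -3.14, limma adjusted p = 0.0043) and Nefm (-3.45, limma adjusted p = 9.4e-05). The median log2 difference of the 10 genes was -0.19, so these 2 do not stand for the list. Keratin 12, which defines corneal epithelium, rose by 6.69 log2 units (Krt12, limma adjusted p = 2.9e-18). In whole tissue fewer cells of a type and less RNA per cell cannot be told apart, and the part of these cell mixtures in the guidance results was not tested.

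The P14 against E15.5 calls numbered 3, all lower, without E15.5 replicate 3, beside 4.69% of all genes. Epha7, Sema5a and Robo1 were called in every alternative run, but Epha7 passed the filter through the 12 arrays where it is high. The median of the epithelial markers was 11.47 to 11.85 at P14, against 10.07 to 10.96 at E15.5, and that of the keratocyte markers 11.12 to 11.86 at P14, against 12.03 to 12.22 at E15.5. The endothelial markers of the inner cornea read 9.93 to 10.44 at P14, against 7.73 to 8.75 at E15.5.

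Of the 9 genes called at P28 against P14, the 7 other than Epha7 and Sema4b were called in every alternative run. Robo2 and Sema6a among them passed the filter only through arrays before P28, so their calls are no support for a difference at this step. Nrp1 exceeded the array median on 19 arrays, none of them of P28. It passed through arrays where it is high, so its call is likewise no support. The median of the keratocyte and stroma list was 9.70 to 10.29 log2 units at P28, against 11.12 to 11.86 at P14, a difference of -1.46 that lies within the range of the guidance falls. The corneal endothelium list was 7.84 to 8.93 at P28, against 9.93 to 10.44 at P14, and the nerve and Schwann cell list 7.79 to 7.96 at P28, against 8.17 to 8.74 at P14. The vessel endothelium list was 7.07 to 7.28 at P28, against 7.62 to 7.95 at P14. The epithelial list was 12.20 to 12.32 at P28, against 11.47 to 11.85 at P14. The part of these shifts in the falls was not tested. In the ageing comparison the lens list was 7.84 to 8.51 in the 3 older ages, against 7.79 to 12.15 at 2 and 6 months, and the retina list 7.05 to 8.76 in the older ages, against 7.72 to 11.17 at 2 and 6 months. The corneal endothelium list was 6.87 to 10.17 in the older ages, against 7.77 to 10.57 at 2 and 6 months. The keratocyte list was 7.32 to 9.90 in the 3 older ages, against 8.49 to 10.15 at 2 and 6 months, and the epithelial list 12.11 to 12.32 in the older ages, against 12.17 to 12.31 at 2 and 6 months. From P28 to 2 years, age by age, the keratocyte list averaged 10.0, 9.9, 8.6, 9.5, 7.9 and 7.9. The corneal endothelium list averaged 8.5, 10.3, 8.3, 9.7, 7.1 and 8.2 at these ages. The part of these shifts in the late changes of the guidance genes was not tested.

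On the layer arrays 36 guidance genes exceeded the median of at least 1 array, of which 14 read higher in the epithelium of P28 and 22 in the stroma of P7. Among all 11220 such genes 49.7% read higher in the stroma. Of the 36, 0 were 4-fold apart, beside 1.93% of all genes (0.57% higher in the epithelium, 1.35% in the stroma). At least 2-fold apart were 4, beside 8.4% of all genes (3.84% higher in the epithelium, 4.56% in the stroma), and all 4 read higher in the stroma. Sema3c read 8.08 log2 units in the epithelium and 9.86 in the stroma (difference -1.78), Nrp2 8.30 and 9.62 (-1.32), Nrp1 7.88 and 8.98 (-1.10) and Robo1 8.77 and 9.79 (-1.02). On the epithelial side the largest differences were those of Sema4d, 9.73 in the epithelium and 8.77 in the stroma (0.96), Plxnb2, 9.91 and 9.11 (0.80), and Plxnb1, 9.93 and 9.29 (0.64). With 1 array each these are differences between 2 arrays with no error and no test.

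The 8 genes that fell at P28 all read higher in the stroma, with differences of -1.78 to -0.47, though Epha7 lay under the median of both layer arrays. The 3 genes with all late arrays above all early ones, beside 5.38% of all genes, read higher in the epithelium. The differences were 0.96 for Sema4d, 0.04 for Epha2 and 0.03 for Sema4a, which lay under the median of both arrays. The layers of all other genes that fell or rose were not counted, so these directions are not shown to be particular to guidance genes. Layer, age and way of isolation differ together and cannot be told apart. The marker lists followed the labels in part: keratocyte markers had a median of 8.84 in the epithelium and 11.25 in the stroma, and epithelial markers 12.09 in the epithelium and 10.40 in the stroma. Lens markers read 8.23 in the epithelium and 12.57 in the stroma, and muscle markers 8.39 and 10.73. The lowest intensity on these arrays was 41.8 and 42.6, which narrows differences between low genes.

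**Figure D5:**
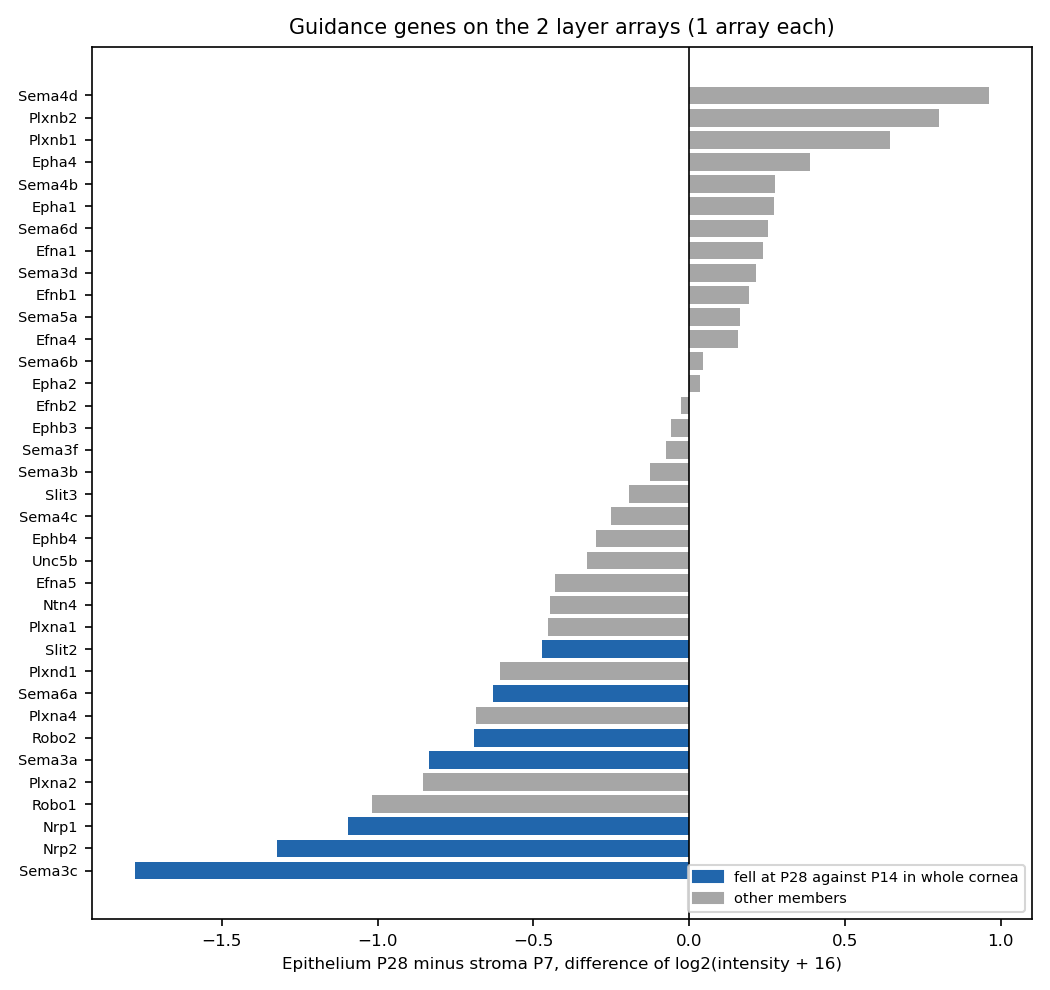
Difference in log2(intensity + 16) between the epithelium of P28 and the stroma of P7 (horizontal axis, epithelium minus stroma) for the 36 guidance genes that exceeded the median of at least 1 of these arrays. Blue bars mark the 7 of them called lower at P28 against P14 in whole cornea, which all lie on the stromal side.

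Other members of the guidance pathways, from 2 lists chosen with earlier results of these data known, were read beside the families. Of 27 tested cues and receptors outside the families, 16 (59.3%) were called over the 12 ages, beside 40.6% of all genes. The calls were 14.8% at E15.5 against E14.5, beside 10.4% of all genes, 14.8% at P14 against E15.5, beside 5.19%, and 7.41% at P28 against P14, beside 7.64%. Chl1, an adhesion molecule that pairs with neuropilins, rose at each of the 3 developmental steps, by 2.38 log2 units at E15.5 against E14.5, 1.31 at P14 against E15.5 and 1.05 at P28 against P14. At E15.5 against E14.5 the neurotrophin receptor Ntrk2 (1.98) and Plxdc2 (1.54) also rose, and the adhesion molecule Nrcam fell (-1.33). At P14 against E15.5 the hepatocyte growth factor receptor Met rose (2.11), and the vascular receptor Kdr (-1.50) and Flrt3 (-1.03) fell. At P28 against P14 Flrt2, a ligand of Unc5 receptors, fell (-1.09). In the ageing comparison limma called 0 of the 27, with 6 at an unadjusted p below 0.05.

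Of 52 tested genes for intracellular guidance signalling, 29 (55.8%) were called over the 12 ages, beside 40.6% of all genes. At the 3 developmental steps the calls lay near or below those of all genes: 7.69% at E15.5 against E14.5, beside 10.4%, 5.77% at P14 against E15.5, beside 5.19%, and 7.69% at P28 against P14, beside 7.64%. At E15.5 against E14.5 Tiam1 (1.33), Limk2 (1.25) and Arhgef12 (1.22), regulators of small GTPases and actin, rose and Pak3 fell (-1.10). At P14 against E15.5 the 3 called genes all fell: the kinase Fyn (-1.81), the actin regulator Enah (-1.18) and Farp1 (-1.16). At P28 against P14 Dpysl3, a collapsin response mediator, fell (-1.78), as did Fyn (-1.12), and Srgap2, a partner of Robos (1.04), and Ablim1 (1.00) rose. Dpysl3 was also the one gene of this list called in the ageing comparison (log2 difference -1.16, limma adjusted p = 0.0021). The medians of this list were 0.20, -0.18, 0.18 and 0.06 log2 units in the 4 comparisons in the order given, close to 0.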

How the data were processed

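RNA of whole cornea at 12 ages (32 arrays), of corneal epithelium (1 array) and of corneal stroma (1 array) was amplified from poly(A) RNA and hybridised to Affymetrix arrays. The deposited values were intensities on a linear scale, 1 per probe set and array, made by the authors. The tools that the submitters' processing notes name are PLIER and Affymetrix Expression Console 1.1. Other normalization steps are not given in the sources used here. The table held 35557 probe sets, of which 21789 had 1 gene symbol in the platform annotation, 1621 several and 12147 none, and 2 values were missing. Array medians were 188.2 to 240.6 on whole cornea and 318 and 321.5 on the layer arrays, so layer values were kept out of the fits. Depth does not apply to arrays: their number, 2 or 3 per age, limits the precision.

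Values were taken as log2(intensity + 16) with no further normalization between arrays. Per gene the probe set of highest mean was used, and 4 guidance genes had more than 1. Genes above the array median on at least 2 of 32 arrays were fitted in R 4.3.3 by the lmFit and eBayes functions of limma 3.58.1 (1 mean per age, 20 residual and 4.1 prior degrees of freedom), with Benjamini-Hochberg adjustment over 12996 genes. A call needed adjusted p below 0.05 and a log2 difference of at least 1. The procedure was tested on simulated data. The members and the gene lists were chosen with earlier results of these data known. Genes given array by array were those called between ages; Sema4a, Sema4c, Sema4d, Sema3d, Epha4 and Ntn4 were added after their values were seen. At most 6 called genes of each other pathway list were named per comparison. Arrays were counted as rich in a marker list where its median lay over 2 log2 units above that of the 32 arrays, for lens, skeletal muscle or retina genes. Replicate numbers were not used to pair arrays: over 160 pairs of arrays with the same number at different ages, the deviations from the age means correlated with a median r of -0.013. Alternatives covered the offset, the filter, normalization between arrays, the probe set rule, moderation, array weights, the replicate block, the call rule and leaving out arrays. Another averaged the 2-month arrays 1A and 1B. Promoter sequences came from RefSeq (GRCm38.p6).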

Additional observations from a re-analysis of the deposited data

How the results depend on the processing

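No log2 difference of a called gene turned its sign in any alternative. Of 29 called results between ages, 13 were called in all alternatives and 16 were lost in at least 1, most often because the difference fell under the fold threshold. Dropping the fold threshold raised the counts, by construction, to 34 within E14.5 to P14 (54.3% of all genes called), 13 within P28 to 2 years (19.8%), 32 at E15.5 against E14.5 (36.4%), 17 at P14 against E15.5 (18.9%) and 14 at P28 against P14 (31.9%). Requiring adjusted p below 0.01 left 4 within P28 to 2 years (4.27% of all genes). Averaging the 2-month arrays 1A and 1B left 7 within P28 to 2 years (5.69% of all genes) and 1 in the ageing comparison (0.577%). At E15.5 against E14.5 array weights left 7 (9.7% of all genes). In the ageing comparison an offset of 64 left 0, beside 0.4% of all genes (1 with the offset of 16, by limma, and 7 at an unadjusted p below 0.05). Leaving out the arrays rich in lens, muscle or retina genes gave 5 there, beside 2.88% of all genes. The younger group of that run was 2 months replicates 2 and 3 only. At a size rule of 1 log2 unit 4 genes differed between the layer arrays.

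Leaving out 1 array at a time gave 29 to 31 calls over the 12 ages, 18 to 24 within E14.5 to P14, 5 to 8 within P28 to 2 years, 6 to 15 at E15.5 against E14.5, 3 to 8 at P14 against E15.5, 9 to 11 at P28 against P14 and 1 to 1 in the ageing comparison. With the replicate number as a block the counts were 30, 22, 8, 13, 6, 9 and 1 in that order, the same as without it. The numbers share no source in the labels, and 11 of 32 arrays correlated best with an array of their own number. The cause of the other changes was not tested. Guidance genes near the array median, and all differences on the layer arrays with their higher floor, are limited by signal over background.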
